A study of Mus musculus with 14 samples.

Results

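Transcripts of 8 genes of cholesterol synthesis were followed by RNA-seq in 14 mouse mammary tumors. Of these, 7 encode enzymes, namely Hmgcs1, Idi1, Fdps, Fdft1, Sqle, Lss and Cyp51, whereas Insig1 encodes a sterol sensor of the endoplasmic reticulum. They were found by gene symbol among the 56414 genes listed, and all 8 had a row of their own and passed the filter on low values in every comparison. The question put to them was whether supplementation with nicotinamide (NAM, a form of vitamin B3) goes along with a different transcript level in either of the tumor models.

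M/D-driven tumors arose in C57Bl/6 mice, in which a pellet releasing 50 mg of medroxyprogesterone acetate (MPA, a progestin) over 90 days was implanted into females aged 6 to 9 weeks, followed by 6 oral doses of the carcinogen DMBA (200 µL at 5 mg/mL). AT3 tumors, also in C57Bl/6 mice, grew after subcutaneous injection of 1000000 cells of AT3, a mammary carcinoma line, so that all 6 of them come from a single cell line. Mice of both models were randomized at a tumor area of 0.25 cm2, and NAM was given at 0.5% in the drinking water for 10 days. One library was made per tumor, from 4 untreated and 4 NAM-treated tumors of the M/D model and from 3 untreated and 3 NAM-treated AT3 tumors. The labels place NAM-treated M/D-driven tumor 1 in experiment 2, the remaining 7 of that model in experiment 1 and the AT3 tumors in experiment 3. They do not state whether tumors came from separate mice, so p values measure the spread between these tumors.

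Cells build cholesterol from acetyl-CoA through the mevalonate pathway. HMG-CoA synthase (Hmgcs1) acts at its start, isopentenyl diphosphate isomerase (Idi1) and farnesyl diphosphate synthase (Fdps) assemble the isoprenoid chain, and squalene synthase (Fdft1), squalene epoxidase (Sqle), lanosterol synthase (Lss) and lanosterol demethylase (Cyp51) form and trim the sterol ring. The genes of the pathway are known targets of the transcription factor SREBP-2, which INSIG proteins hold in the endoplasmic reticulum when sterols are plentiful, and which is released for cleavage when they are scarce. Insig1 is itself a target of this system, and dividing tumor cells as well as milk-secreting epithelium are known to draw on sterols for their membranes.

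On the mm10 assembly the genes lie at chr13:119690351-119708260 (Hmgcs1), chr13:8885606-8892451 (Idi1), chr3:89093588-89101967 (Fdps), chr14:63145153-63179579 (Fdft1), chr15:59315075-59331193 (Sqle), chr10:76531605-76557138 (Lss), chr5:4080674-4104697 (Cyp51) and chr5:28071360-28078661 (Insig1). RefSeq promoters of 300 bases (GRCm38.p6, from 250 bases before to 50 after a start) were matched for 5 of the 8 genes, which are Hmgcs1, Idi1, Lss, Cyp51 and Insig1. The motif TCACNCCAC, written here for the sterol regulatory element and searched on both strands, was found in 1 of these 5 promoters, against 1.24% of all 32851 promoters. Among the other enzymes of the pathway it was found in 0 of the 12 genes matched. That promoter is the one of Hmgcs1, and it is shown because the motif is the element through which SREBP proteins are known to bind. It spans chr13:119690101-119690400 on the plus strand, and the capitals mark the motif, the first base of which lies 137 bases before the annotated start.
Hmgcs1 promoter: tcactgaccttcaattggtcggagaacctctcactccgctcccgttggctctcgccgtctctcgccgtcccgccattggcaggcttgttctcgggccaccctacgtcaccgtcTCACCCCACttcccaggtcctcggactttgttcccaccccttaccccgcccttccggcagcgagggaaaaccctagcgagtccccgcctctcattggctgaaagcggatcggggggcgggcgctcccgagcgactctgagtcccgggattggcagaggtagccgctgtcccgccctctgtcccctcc
CCAAT, the NF-Y motif, was present in 5 of the 5 promoters, beside 37.4% of all promoters, and GGGCGG, the Sp1 motif, also in 5 of the 5, beside 35.7%. These are matches of letters in a fixed window and no measurement of binding.

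M/D-driven tumors had 50391585 to 84178009 recovered reads each, and AT3 tumors 40936868 to 75527467. NAM-treated M/D-driven tumor 1 stood apart from the others of its model in epithelial and B-cell markers. Its summed level of 9 epithelial markers was 7790 normalized counts, whereas the other 7 M/D-driven tumors held 266151 to 1020845. Epcam read 932 in it against 16166 to 62247, and Krt14 read 424 against 23904 to 752028. The B-cell gene Cd79a read 86806 in this tumor, with at most 822 in the others. None of the 9 epithelial markers was at 0 in any tumor. The main results in M/D-driven tumors are therefore also given without this tumor, which leaves experiment 1 alone. In bulk tissue, fewer cells of a type and less RNA per cell cannot be told apart.

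In M/D-driven tumors, transcripts of the 7 enzymes were lower with NAM, by log2 fold changes of -0.89 for Sqle to -1.43 for Idi1, and Insig1 differed by -0.12. A gene was called when its unadjusted limma p was at most 0.05 and its fold change at least 1.5. On this rule 7 of the 8 genes were called lower and 0 higher, whereas 3.19% of the 21700 genes tested were called lower and 3.03% higher. The median log2 fold change of the 8 genes was -1.23, beside 0.01 over all genes. No member passed after Benjamini-Hochberg adjustment over all genes, with adjusted p values of 0.734 for the 7 enzymes, and 1 gene of the 21700 passed at 0.05. Count tests on the recovered reads (edgeR quasi-likelihood and DESeq2) also called 7 of the 8 lower. Of all genes, edgeR called 2.67% lower and 4.96% higher, and DESeq2 3.65% and 6.12%. At an adjusted p of 0.05 edgeR passed 0 genes, with 1749 at 0.05 before adjustment, and DESeq2 passed 176, none of them among the 8.

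**Figure D1:**
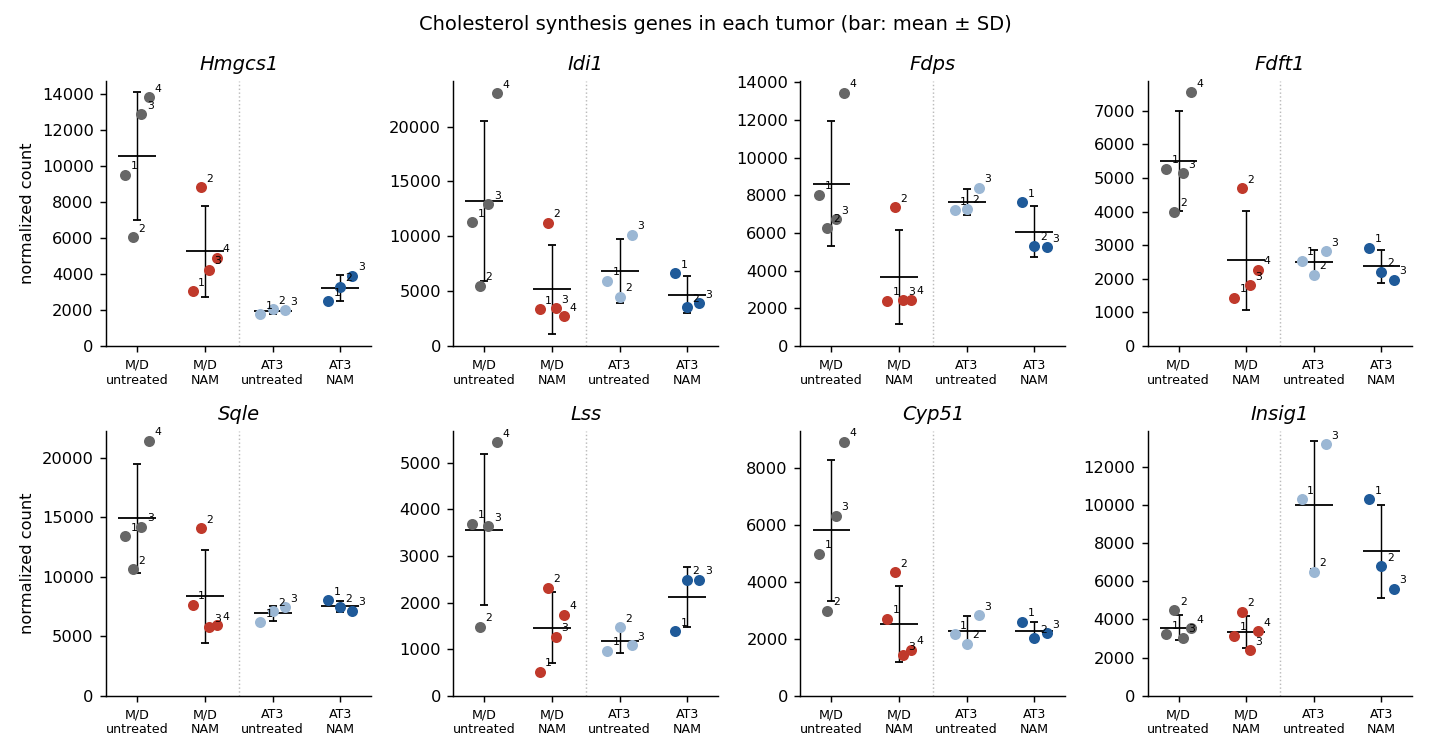
Normalized counts (y axis, from 0) of the 8 genes in each of the 14 tumors, by model and treatment, with replicate numbers beside the points and bars at the mean ± SD. NAM-treated M/D-driven tumors 1, 3 and 4 lie low for most enzymes while tumor 2 lies among the untreated tumors, and Insig1 is higher in AT3 tumors.

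At the entry of the pathway, Hmgcs1 read 9512, 6044, 12885 and 13827 normalized counts in untreated M/D-driven tumors 1 to 4. In NAM-treated tumors 1 to 4 it read 3045, 8824, 4234 and 4910. Untreated tumor 2 and NAM-treated tumor 2 made the groups overlap, and the means were 10567 ± 3539 and 5253 ± 2502 (SD, n = 4 each). The log2 fold change was -1.05 (SE 0.38, 95% CI -1.92 to -0.18).

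The isoprenoid steps showed the same split among NAM-treated tumors. Idi1 went from 11301, 5509, 12931 and 23052 in untreated tumors to 3359, 11237, 3421 and 2714 under NAM, a log2 fold change of -1.43 (SE 0.55). Fdps read 8035, 6282, 6729 and 13455 without NAM and 2400, 7383, 2431 and 2467 with it, which gave -1.36 (SE 0.42). In both genes NAM-treated tumors 1, 3 and 4 lay below every untreated tumor, and tumor 2 lay inside the untreated range.

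Fdft1, which commits farnesyl units to sterols, read 5278, 4004, 5146 and 7565 in untreated tumors. Its values with NAM were 1436, 4704, 1807 and 2276, at a log2 fold change of -1.22 (SE 0.38). Sqle, which oxidizes squalene, read 13415, 10661, 14221 and 21429 without and 7647, 14078, 5762 and 5932 with NAM (log2 fold change -0.89, SE 0.33). Here too, 3 of the 4 NAM-treated tumors lay below all untreated ones.

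For the ring-forming steps, Lss read 3696, 1482, 3636 and 5445 in untreated tumors and 520, 2319, 1272 and 1738 in NAM-treated tumors (log2 fold change -1.33, SE 0.54). Cyp51 read 4999, 2993, 6334 and 8937 against 2706, 4344, 1435 and 1619 (log2 fold change -1.24, SE 0.44). For Lss the low value of untreated tumor 2 fell below 2 NAM-treated tumors. By exact two-sided permutation tests the 7 enzymes had p values of 0.0571 to 0.0857, where 4 against 4 tumors cannot go below 0.029.

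Insig1, the regulator, read 3215, 4468, 3041 and 3544 without NAM and 3144, 4391, 2382 and 3379 with it. The ranges of both groups nearly coincided, and the log2 fold change was -0.12 (95% CI -0.65 to 0.41, adjusted p = 0.923). The bound of -0.65 lies above the changes measured for all 7 enzymes, although the difference between Insig1 and the enzymes was not tested.

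**Figure D2:**
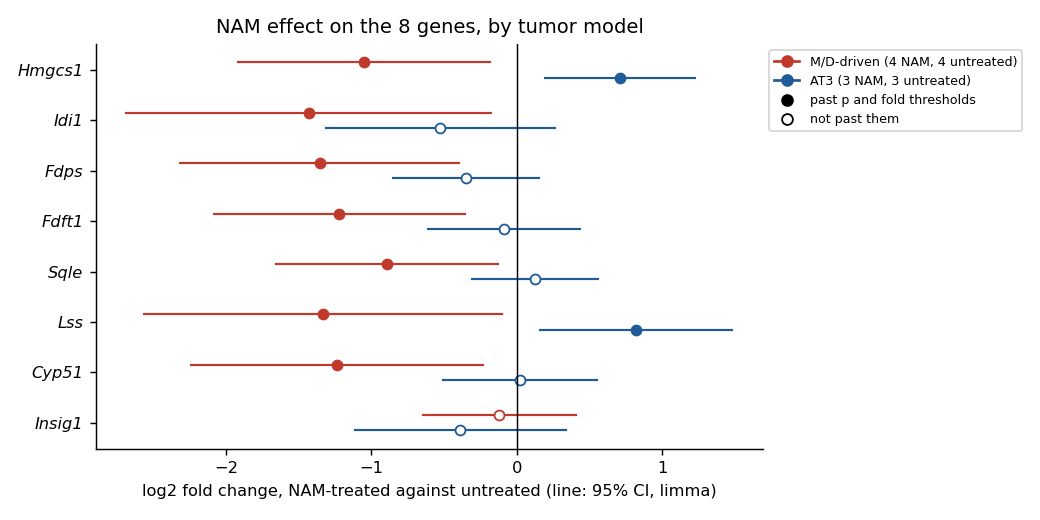
Log2 fold change of NAM-treated against untreated tumors (x axis) for each of the 8 genes, with the 95% confidence interval of limma, in M/D-driven tumors (red) and AT3 tumors (blue). Filled points passed the p and fold thresholds, as 7 genes did in M/D-driven tumors, all lower, and 2 in AT3 tumors, both higher.

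No gene of the 8 separated all untreated from all treated tumors of the M/D model, beside 4.43% of all genes whose groups did not overlap. Untreated tumor 4 held the highest value for 7 of the 8 genes, and NAM-treated tumors 1 and 3 held the lowest for 4 and 3 of them. The mean log2 level over the 8 genes was 12.69, 12.15, 12.77 and 13.32 in untreated tumors and 11.24, 12.6, 11.3 and 11.47 in NAM-treated tumors. When NAM-treated tumor 2 was left out, 6 of the 8 genes lay lower in all treated tumors, beside 7.08% of all genes, and 5 did when untreated tumor 2 was left out, beside 5.75%. With any other tumor left out it was 0 of the 8.

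The number of calls depended on single tumors, and the share of all genes called lower moved with it. It was 7 of the 8 without untreated tumor 2 (5.25% of all genes) or NAM-treated tumor 2 (6.92%), and 5 without untreated tumor 1 (2.12%). It was 4 without NAM-treated tumor 1 (2.33%) or 4 (3.32%), and 2 without untreated tumor 3 (1.71%), untreated tumor 4 (1.62%) or NAM-treated tumor 3 (2.72%). Fdps and Fdft1 were called lower under all 20 alternatives tried, those with a tumor left out included. In experiment 1 alone, that is without NAM-treated tumor 1, the 4 genes called were Fdps, Fdft1, Sqle and Cyp51, and the median log2 fold change was -0.95.

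**Figure D3:**
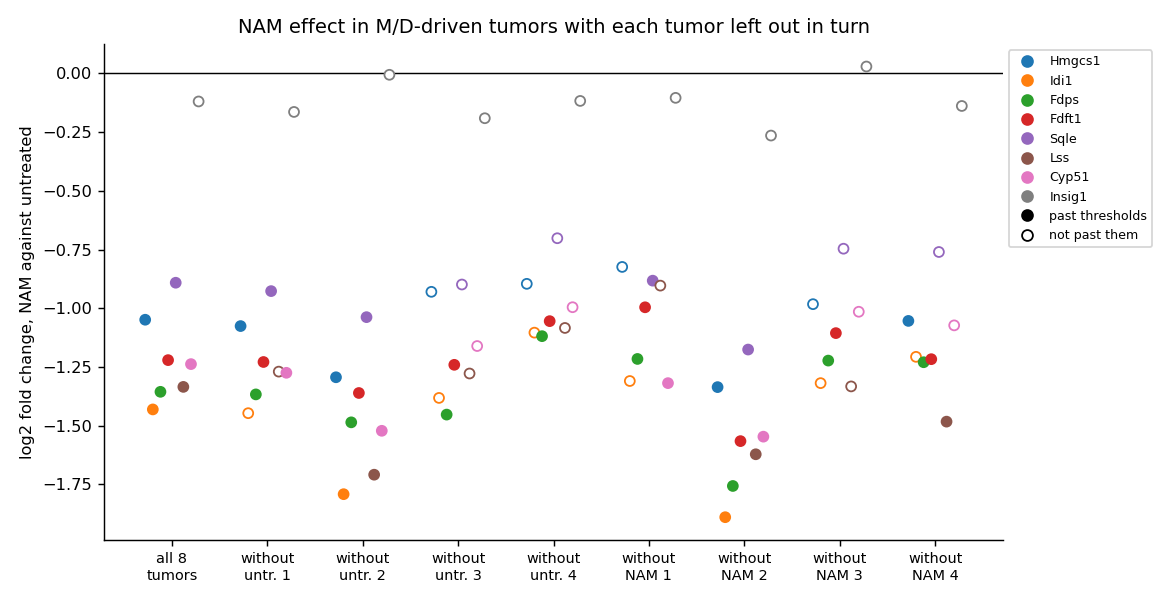
Log2 fold change of the 8 genes in M/D-driven tumors (y axis) with all 8 tumors and with each tumor left out in turn (x axis), filled where the thresholds were passed. The 7 enzymes stay below 0 in every setting, while the number of filled points goes from 7 to 2.

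Markers of other cell types and proliferation genes differed between these tumors as well. Summed epithelial markers ranged from 316994 to 1020845 in untreated and from 7790 to 632826 in NAM-treated M/D-driven tumors, and all 9 markers had log2 fold changes below 0 (8 of the 9 with upper quartile scaling) with 0 called. The highest epithelial sum, in untreated tumor 4, held 752028 of Krt14 and 183452 of Krt5. That tumor had the lowest Epcam of the untreated M/D-driven tumors, at 16166, so the sum follows these keratins more than Epcam. Summed adipocyte markers ranged from 35270 to 96060 and from 51195 to 156065, with 1 of 6 called higher. The 12 proliferation genes summed to 41227 to 84978 and to 29912 to 166712, with 0 called in either direction. Milk protein transcripts summed to 2881 to 215207 and to 5843 to 219389, and 0 of 5 were called. Sebaceous gland markers, at 101 to 1016 and 44 to 302, had 1 of 4 called lower. Skeletal muscle markers summed to 13.5 to 19761 and to 806 to 195152, with 1 of 3 called higher. Their highest sums were 195152 in NAM-treated tumor 4 and 59289 in NAM-treated tumor 2. Of the leukocyte, macrophage, fibroblast and endothelial markers 0 were called. Without NAM-treated tumor 1 the median log2 fold change of the epithelial markers went from -1.09 to -0.06, with 5 of 9 below 0 and 1 called lower, that of the proliferation genes went from 0.15 to -0.24 with 0 called, and 0 sebaceous gland markers were called. Their part in the lower enzyme levels was not tested.

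The rest of the pathway was low in the same tumors. Of the 14 other enzymes, 7 were called lower under NAM in the M/D model and 0 higher, with a median log2 fold change of -0.97. The shares of all genes were 3.19% and 3.03%. Dhcr7, the last enzyme of the main route, read 3487, 2126, 3226 and 4540 without NAM and 997, 2278, 1277 and 1335 with it (log2 fold change -1.20, SE 0.32). Mvd, the decarboxylase that yields isopentenyl diphosphate, had -1.32 (SE 0.48). Msmo1, a methylsterol oxidase, had -1.47 (SE 0.60), and Nsdhl, which acts after it, had -0.99 (SE 0.29). Acat2 and Pmvk were also called, at -0.94 and -0.96.

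Hsd17b7, which acts with Nsdhl in the removal of methyl groups from the sterol ring, had a log2 fold change of -1.74 and was not called (adjusted p = 0.738), with 1944 in NAM-treated tumor 2 and 257 to 360 in the other NAM-treated tumors. Lbr, a sterol reductase that is also a nuclear envelope protein, was the single enzyme with a log2 fold change above 0, and it read 6251 in NAM-treated tumor 1 and 1145 to 2081 in the other tumors of the model. Over all 21 enzymes 14 were called lower, beside 3.19% of all genes. This number was 8 without NAM-treated tumor 1 (2.33% of all genes), 7 without untreated tumor 1 (2.12%) and 6 without NAM-treated tumor 4 (3.32%). It was 5 without untreated tumor 3 (1.71%) and 4 without untreated tumor 4 (1.62%) or NAM-treated tumor 3 (2.72%). It was 18 without untreated tumor 2 and 19 without NAM-treated tumor 2, settings in which 5.25% and 6.92% of all genes were called lower. Without NAM-treated tumor 1, Dhcr7 had -1.04 and was called, Mvd and Msmo1 had -1.23 and -1.30 and were not, and 4 of the 14 other enzymes were called lower.

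**Figure D4:**
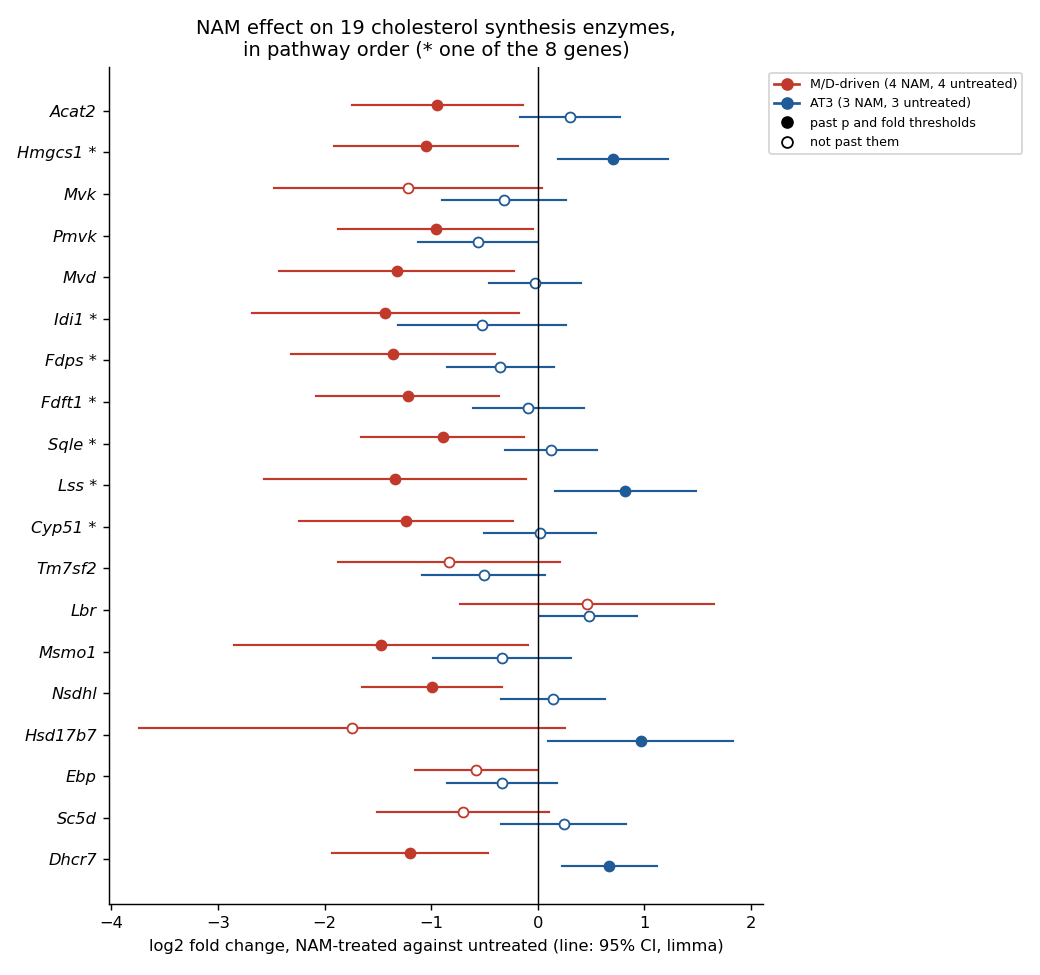
Log2 fold change with NAM (x axis, with the 95% confidence interval of limma) of 19 cholesterol synthesis enzymes in pathway order from top to bottom, in M/D-driven (red) and AT3 tumors (blue). In M/D-driven tumors 18 of the 19 points lie below 0 and 13 are filled as called lower, whereas in AT3 tumors 4 are called higher.

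Among all genes in M/D-driven tumors, 3.19% were called lower and 3.03% higher. Of the 10 genes of sterol sensing and SREBP processing, 1 was called lower. This was Insig2, the paralog of Insig1, at -0.78 (SE 0.27), with 1471, 1906, 1803 and 1864 in untreated and 646, 1446, 1011 and 1132 in NAM-treated tumors, so that its groups did not overlap. Srebf2, encoding SREBP-2, differed by -0.47 (SE 0.20), which is under the fold threshold, and Srebf1 by -0.09 (SE 0.47, adjusted p = 0.977). Of the 14 genes of sterol uptake, storage and efflux, 2 were called lower and 2 higher, beside the same shares of all genes. Abcg1, a sterol efflux pump, was among those called higher, at 0.64 (SE 0.24). Without NAM-treated tumor 1, Insig2 at -0.57 and Abcg1 at 0.50 were not called, Srebf2 at -0.61 was called lower, and Srebf1 had 0.20.

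The branches that use isoprenoids for other ends had 0 of 8 genes called in M/D-driven tumors, a count near the share of all genes. That share was 3.19% lower and 3.03% higher, and 2.33% and 2.85% without NAM-treated tumor 1. Fatty acid synthesis had 2 of 13 called lower, with a median log2 fold change of -0.39. These were Acss2, acetyl-CoA synthetase, at -1.35 (SE 0.40) and malic enzyme Me1 at -1.44 (SE 0.54), and both were called without NAM-treated tumor 1 too, at -1.11 and -0.89.

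In AT3 tumors the 8 genes did not share a direction with NAM. Hmgcs1 and Lss were called higher, the other 6 were not called, and the median log2 fold change of the 8 was -0.03. Among all 19281 genes tested in this model 12.2% were called higher and 10.9% lower. Rescaling moved this background, to 14.1% higher and 8.36% lower with TMM factors and to 6.80% and 18.1% with upper quartile scaling, under which Lss alone of the 8 was called higher.

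Hmgcs1 read 1778, 2061 and 1996 in untreated and 2477, 3300 and 3901 in NAM-treated AT3 tumors. All 3 treated tumors lay above the untreated ones, which also held for 11.7% of all genes, while in 11% all treated tumors lay below. The log2 fold change was 0.71 (SE 0.23, adjusted p = 0.167), and the exact permutation p was 0.1, the smallest that 3 against 3 tumors allow. Lss read 968, 1468 and 1087 without NAM and 1380, 2490 and 2491 with it (log2 fold change 0.82, SE 0.29, adjusted p = 0.169). Its call was absent without untreated tumor 1 or 3 and without NAM-treated tumor 2 or 3, at limma p values of 0.0582 to 0.0833, and that of Hmgcs1 was absent without NAM-treated tumor 2 or 3, at limma p values of 0.0505 and 0.0651.

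Sqle read 6203, 7128 and 7434 in untreated and 8037, 7426 and 7133 in NAM-treated AT3 tumors, with a log2 fold change of 0.12 (95% CI -0.31 to 0.56). Cyp51 read 2155, 1824 and 2842 against 2609, 2033 and 2207 (log2 fold change 0.02, 95% CI -0.51 to 0.55), and Fdft1 read 2542, 2129 and 2829 against 2926, 2212 and 1972 (-0.09, 95% CI -0.61 to 0.43). For these 3 enzymes the groups overlapped and the intervals included 0.

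Fdps and Idi1 lay lower on average. Fdps read 7218, 7287 and 8413 without and 7638, 5322 and 5259 with NAM (log2 fold change -0.35, 95% CI -0.85 to 0.15). Idi1 read 5958, 4493 and 10141 against 6622, 3517 and 3906 (-0.53, 95% CI -1.31 to 0.26), and Insig1 10279, 6490 and 13172 against 10294, 6772 and 5599 (-0.39, 95% CI -1.12 to 0.34). In all 3 genes NAM-treated tumor 1 lay above the other treated tumors. Without untreated tumor 2 or NAM-treated tumor 1 Idi1 was called lower, and so was Insig1 without untreated tumor 2. The number of calls among the 8 genes was 4 without untreated tumor 2, where 18.2% of all genes were called higher and 17.5% lower, and 3 without NAM-treated tumor 1, at 17.9% and 15.3%. It was 1 without untreated tumor 1 (6.47% and 5.08%) or 3 (7.34% and 6.07%), and 0 without NAM-treated tumor 2 (5.06% and 4.56%) or 3 (4.68% and 3.69%).

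Fold changes in AT3 tumors went along with transcript length. Over the 16429 genes that have a length (genes are no independent replicates), Spearman's rho of the log2 fold change with the length was 0.589, as compared to -0.0386 in M/D-driven tumors. Of the 8 genes, Lss had the longest transcript, at 6992 bases, followed by Sqle at 4467, Cyp51 at 3931 and Fdft1 at 3698. Idi1, Fdps and Insig1, which lay lower on average, had the shortest, at 3027, 2953 and 2697. Hmgcs1, called higher, had 3464. Once each tumor's dependence on length and GC content had been taken out, Lss had a log2 fold change of 0.10 and was not called, Hmgcs1 was still called higher at 0.73, and the median of the 8 genes was -0.28.

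Of the 14 other enzymes 4 were called higher in AT3 tumors and 0 lower, among them Hsd17b7 at 0.97 (SE 0.38, adjusted p = 0.183) and Dhcr7 at 0.67 (SE 0.20, adjusted p = 0.166). This split was 1 higher and 2 lower with upper quartile scaling, where 6.80% of all genes were called higher and 18.1% lower. With the dependence on length and GC content taken out it was 2 higher and 1 lower, beside 7.91% and 7.93%. Srebf2 was called higher by 1.18 (SE 0.29, adjusted p = 0.166), from 946, 1223 and 943 to 1525, 2927 and 2846. In all, 4 of 10 sterol sensing genes, 4 of 14 of uptake, storage and efflux, 2 of 8 of the isoprenoid branches and 4 of 13 of fatty acid synthesis were called higher and 0 lower. With the dependence on length and GC content taken out, these counts were 3, 1, 1 and 3 higher, with 1 lower in uptake, storage and efflux. Over all genes 12.2% were called higher and 10.9% lower in the main fit, and 7.91% and 7.93% in this setting. Upper quartile scaling gave 4, 3, 2 and 4 higher, again with 1 lower in uptake, storage and efflux.

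In AT3 tumors summed epithelial markers ranged from 86507 to 111036 in untreated and from 77130 to 87815 in NAM-treated tumors, with 1 of 9 called higher and 3 lower. Endothelial markers had 3 of 3 called higher, macrophage markers 3 of 5, fibroblast markers 1 of 5 and proliferation 1 of 12. Leukocyte markers had 1 of 8 called higher and 2 lower, adipocyte markers 1 of 6 lower, and milk protein, sebaceous gland and skeletal muscle markers 0. Of all genes 12.2% were called higher and 10.9% lower. The part of the markers in the levels of the 8 genes was not tested.

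The effect of NAM differed between the models for 5 of the 8 genes by an interaction term over the 14 tumors. In all 5 it was the effect, not the level, that was lower in M/D-driven than in AT3 tumors. In the background 7.90% of 22710 genes were called on this side and 6.97% on the other. The difference was -1.76 for Hmgcs1 (SE 0.49, adjusted p = 0.193), -2.16 for Lss (SE 0.70, adjusted p = 0.221), -1.02 for Sqle (SE 0.42, adjusted p = 0.297), -1.13 for Fdft1 (SE 0.49, adjusted p = 0.31) and -1.26 for Cyp51 (SE 0.56, adjusted p = 0.324). Fdps at -1.01 (95% CI -2.16 to 0.14) and Idi1 at -0.91 (95% CI -2.50 to 0.69) were not called, and Insig1 had 0.27 (95% CI -0.61 to 1.15).

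Hmgcs1 was called in this comparison under all 24 alternatives, and Lss under 23. The other 3 were less firm, since Sqle was called under 15 of 24, Fdft1 and Cyp51 under 10 each. Removal of the trend with length and GC content left Hmgcs1 as the only call, beside 5% of all genes called lower and 5.78% higher. With upper quartile scaling the background became 4.07% and 14%, and Hmgcs1 and Lss were called. Leaving out 1 tumor gave 2 to 7 calls, beside 4.25% to 10.8% of all genes called lower, with 4 in the absence of NAM-treated M/D-driven tumor 1. There were 2 calls without untreated M/D-driven tumor 4, NAM-treated M/D-driven tumor 3 or 4, untreated AT3 tumor 1, or NAM-treated AT3 tumor 1 or 2, and 3 without untreated M/D-driven tumor 1 or untreated AT3 tumor 2. For 7 of the 14 other enzymes the effect of NAM, not the level, was called lower in M/D-driven than in AT3 tumors, with Dhcr7 at -1.88 (SE 0.41, adjusted p = 0.183).

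Untreated tumors of the models were compared on reads rescaled over all 14 tumors. Of the 8 genes, 5 were called higher in M/D-driven tumors and Insig1 lower, where 33.4% of 21752 genes were called higher and 22.7% lower. Model, experiment, cell of origin and site of growth cannot be told apart in this comparison.

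Hmgcs1 read 9472, 6097, 12801 and 13465 rescaled counts in untreated M/D-driven tumors and 2040, 2424 and 2371 in untreated AT3 tumors, a log2 difference of 2.14 (SE 0.28, adjusted p = 0.000574). Insig1 read 3201, 4507, 3021 and 3451 against 11792, 7632 and 15646, which is a log2 difference of -1.68 (SE 0.27, adjusted p = 0.00131). The groups of these 2 genes did not overlap, and both were called under all 16 alternatives. By the exact permutation test each had p = 0.0571, the smallest that 4 against 3 tumors allow.

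Lss was higher by 1.24 (SE 0.40, adjusted p = 0.0287), Cyp51 by 1.03 (SE 0.35, adjusted p = 0.0341), Fdft1 by 0.87 (SE 0.23, adjusted p = 0.0131) and Sqle by 0.83 (SE 0.24, adjusted p = 0.0195). Idi1 at 0.61 (95% CI -0.43 to 1.65) and Fdps at -0.13 (95% CI -0.73 to 0.48) were not called. The median of the 8 genes was 0.85, beside 0.22 over all genes. It was 0.13 with upper quartile scaling, where the median of all genes was -0.56 and 20.3% and 39.5% of genes were called higher and lower. With the trend with length and GC content removed, it was -0.10, 21.7% and 35.8% of genes were called higher and lower, and Lss, Fdft1 and Sqle lay below 0 at -0.19, -0.02 and -0.18. In both settings Hmgcs1 alone was called higher and 2 of the 8 genes lower. With 1 tumor left out there were 4 to 7 calls, beside 28.9% to 34.8% of all genes called higher and 19.8% to 23.2% lower, and 4 calls without untreated AT3 tumor 1, where Lss and Cyp51 had limma p values of 0.0527 and 0.0504. Epithelial markers had 5 of 9 called higher in M/D-driven tumors, leukocyte markers 4 of 8 and adipocyte markers 6 of 6, while 6 of 12 proliferation genes were called lower, and their part in these differences was not tested.

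Across the 8 M/D-driven tumors the 7 enzymes moved nearly in parallel. Pearson's r of log2 values over their 21 pairs ran from 0.732 to 0.977 with a median of 0.922, whereas the 7 pairs with Insig1 ran from 0.155 to 0.492. These are descriptions over 8 points that share libraries and normalization. The mean r over all 28 pairs was 0.768, beside 0.00138 over all pairs of genes tested. The latter averages signed r, so that positive and negative pairs cancel and the usual size of r is not shown. Over the 28 pairs the mean r was 0.686 once the mean of each treatment group was removed. It was 0.787 without NAM-treated tumor 1 and 0.696 to 0.802 with any 1 tumor left out.

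In the 6 AT3 tumors the genes fell into different patterns. The mean r was 0.145, and single pairs of enzymes ran from -0.907 (Fdps and Lss) to 0.952 (Hmgcs1 and Lss). Idi1, Fdps and Fdft1 had r of 0.785 to 0.880 with each other and 0.821 to 0.943 with Insig1, and r of -0.584 to -0.873 with Hmgcs1. Sqle had r between 0.0448 and 0.421 with the other 7 genes. These pairs still hold the trend with length and GC content, which was strong in AT3 tumors. With it removed the mean r was 0.201, and single pairs were not computed.

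**Figure D5:**
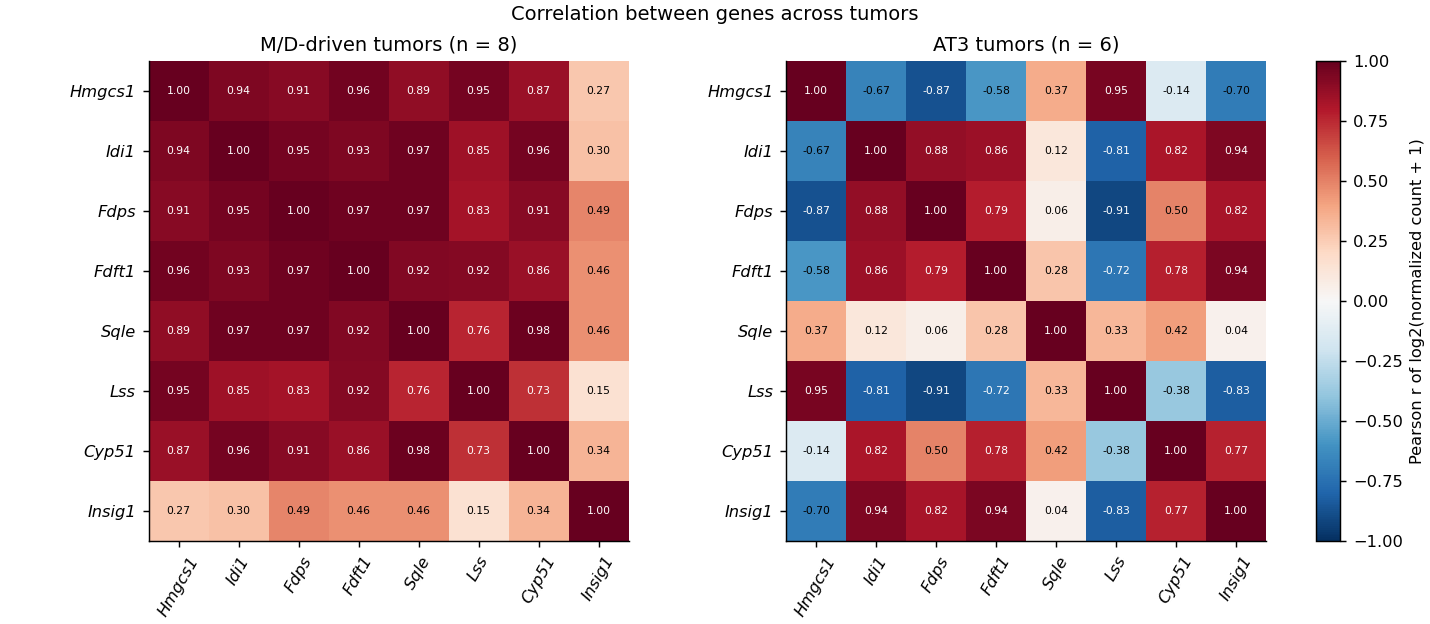
Pearson's r of log2(normalized count + 1) for each pair of the 8 genes (both axes) across 8 M/D-driven tumors and across 6 AT3 tumors, on a color scale from -1 to 1. The enzymes form a block of high r in M/D-driven tumors, from 0.732 to 0.977, and in AT3 tumors Hmgcs1 and Lss run against Idi1, Fdps and Fdft1.

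Outside the 8 genes, the patterns most like their mean log2 level in both models were sought among 15406 genes, ranked by the lower of the r over 8 M/D-driven and over 6 AT3 tumors. First came Gpr160, an orphan G protein-coupled receptor, with r of 0.983 and 0.915. It read 2068, 1407, 2215 and 3365 in untreated and 477, 1497, 681 and 639 in NAM-treated M/D-driven tumors, and 292 to 444 in AT3 tumors. It was followed by Plbd1 (0.900 and 0.992), Sgpp1 (0.900 and 0.901), Echdc1 (0.882 and 0.945), Gm9733 (0.912 and 0.876) and Sowahc (0.911 and 0.870). Of the other enzymes of the pathway, Msmo1, Dhcr7 and Pmvk ranked 3, 9 and 15 in M/D-driven tumors alone, at r of 0.984, 0.978 and 0.973, and Msmo1, the first of them over both models, ranked 284. In AT3 tumors these enzymes had r of 0.595, 0.025 and 0.255. The lowest r were -0.497 for Lbr in M/D-driven and -0.64 for Mvd in AT3 tumors. In AT3 tumors the mean log2 level ran from 11.73 to 12.11, over genes with a mean r of 0.145. The trend with length was still in it. A ranking of 15406 genes over so few tumors picks high r by itself, so it is no test of likeness.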

How the data were processed

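RNA from 14 tumors was sequenced as paired-end polyA libraries. The authors deposited normalized counts per gene, a signal made by scaling read counts with DESeq2 separately for each model. Reads had been aligned with STAR 2.4.0 to mm10, per the submitters' processing notes and the study's methods. How reads that match several gene copies were counted is not given in the sources used here. Each normalized count was a whole multiple of the value of 1 read (100% of values, tolerance 0.01), so reads were recovered, and totals limit the precision by counting error only. Of 56414 genes, 19524 were at 0 in all tumors.

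Within a model, limma 3.58.1 (R 4.3.3) was fitted to log2(normalized count + 1), so that fold changes of low genes are understated, leaving out genes whose mean was under 10 in every group. Calls took the study's thresholds (unadjusted p up to 0.05, fold change from 1.5 upwards), and p values were also Benjamini-Hochberg adjusted over all genes tested. Untreated tumors of both models were compared on recovered reads rescaled with edgeR 4.0.16 (TMM). Alternatives were other pseudocounts, filters and scalings, edgeR and DESeq2 1.42.0 count tests, removal of the trend with transcript length (longest transcript) and GC content, a replicate block, and each tumor left out. The fits were also run on simulated counts that held no trend with length and no differences in cell types, so that run is no check on either.

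The 8 genes and all gene and marker lists were chosen with earlier results of these data known. Named were the 8 genes, Srebf1, Srebf2, up to 6 genes per list with the largest passed change in any comparison, and the 6 genes most like the mean level. Acat2, Pmvk, Nsdhl, Lbr and the cell type markers printed were named after their values were seen. Some genes that this rule or the lists hold are counted but not reported singly here.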

Additional observations from a re-analysis of the deposited data

Results flagged for a closer look

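In groups of 4 tumors, a value was picked out when its gap to the nearest other tumor took up more of the group's range than Dixon's 95% limit, which chance alone exceeds in about 1 in 20 groups. Of the 78 groups checked, 6 did so. NAM-treated M/D-driven tumor 2 held 4 of these values, with 11237 normalized counts of Idi1 (2714 to 3421 in the other NAM-treated tumors), 7383 of Fdps (2400 to 2467), 1944 of Hsd17b7 (257 to 360) and 3884 of Msmo1 (831 to 918). The others were Abca1, at 5022 in untreated M/D-driven tumor 3, and Rnf145, at 1446 in untreated M/D-driven tumor 4.

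The effect of NAM differed between the models, by the interaction term of limma on the thresholds of the report (unadjusted p up to 0.05, fold from 1.5 upwards), for 16 of the 39 genes checked. Most of the 39 had been named for a large change in one of the comparisons, this one included, so neither the count nor the shared sign is a test. Among the 8 genes the log2 differences were -1.757 for Hmgcs1, -1.134 for Fdft1, -1.016 for Sqle, -2.158 for Lss and -1.261 for Cyp51. Other enzymes were Hsd17b7 at -2.705, Dhcr7 at -1.875 and Mvd at -1.298. Of sterol sensing, Srebf2 had -1.648, Mbtps2 -1.195 and Rnf145 -0.8565, and of uptake, Npc1 had -0.934. Fntb of the isoprenoid branches had -1.015, and Scd2, Me1 and Acss2 of fatty acid synthesis had -1.98, -1.807 and -1.686. No difference passed at an adjusted p of 0.05 over all 22710 genes, of which 3387 had an unadjusted p of at most 0.05 by limma, while DESeq2 called 811 at an adjusted p of 0.05.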

How the results depend on the processing

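Values without one tumor pool the spread over the tumors left. With NAM in M/D-driven tumors, 2 to 7 of the 8 genes were called and the median was -1.557 to -0.9499 with 1 tumor left out. In AT3 tumors these were 0 to 4 and -0.1635 to 0.09227, for the difference between models 2 to 7 and -1.443 to -0.8971, and for untreated tumors 4 to 7 and 0.6817 to 0.9856. Upper quartile scaling gave 1 call in AT3 tumors (median -0.2649), 2 for the difference and 3 for untreated tumors (median 0.132). It moved the median of all genes to 0.12, -0.29, 0.39 and -0.56 in the 4 comparisons. Removal of the trend with length and GC content gave 5 calls in M/D-driven tumors, where those of Sqle and Lss were lost, 1 call in AT3 tumors (median -0.2847), 1 for the difference and 3 for untreated tumors, where the median turned to -0.1018, Fdft1 to -0.02261, Sqle to -0.181, Lss to -0.1892 and Scap to -0.3682. Of all genes, removal of the trend left 2.43% called higher and 3.17% lower in M/D-driven tumors. It left 7.91% and 7.93% in AT3 tumors, 5.78% and 5% for the difference, and 21.7% and 35.8% for untreated tumors. A single fit of all 14 tumors gave 0 calls among the 8 genes in AT3 tumors (9.05% of all genes higher, 8.05% lower). With edgeR there were 3 for the difference (8.9% and 7.18%). Over all genes, calls without a filter on low values numbered 2180 in M/D-driven tumors, as compared to 1350, and the count tests on recovered reads called 1655 (edgeR) and 2119 (DESeq2). The cause of these changes was not tested. Whether replicate numbers pair the tumors cannot be settled by so few correlations. Same-numbered tumors correlated at 0.11, -0.444, -0.216 and -0.186 in M/D-driven and at 0.126, 0.256 and -0.16 in AT3 tumors. Differently numbered ones ran from -0.217 to 0.389 and from -0.317 to 0.281. A replicate block in limma changed the genes at an adjusted p of 0.05 from 1 to 1296 in AT3 tumors and from 1 to 0 in M/D-driven tumors. With the replicate block, 2 of the 8 genes were called in M/D-driven tumors, beside 2.21% of all genes higher and 2.41% lower. For the difference it was 2, beside 5.98% and 7.05%. With the block and the trend removed, 3 were called in M/D-driven tumors (1.55% and 2.47% of all genes). In AT3 tumors that setting gave 1 (median -0.2847, 8.44% and 8.45% of all genes). The mean r among the genes was 0.6958 to 0.8018 in M/D-driven and 0.09412 to 0.1955 in AT3 tumors with 1 tumor left out, settings of which all but the one without NAM-treated tumor 1 were chosen after seeing the data. It was 0.6861 in M/D-driven tumors with group means removed, and 0.6783 and 0.201 in M/D-driven and AT3 tumors with the trend removed.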
